A study of Arabidopsis thaliana with 12 samples.

Results

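LHB1B2 (locus AT2G34420) and PSAN (locus AT5G64040) are a pair of nuclear genes of the photosynthetic light reactions, followed here in Arabidopsis thaliana cell culture with and without cytokinin. Each was the only gene that the platform annotation gave for its array feature, which was feature 2665 for LHB1B2 and feature 85 for PSAN. They are 2 of the 691 genes that were the only gene of a feature. Both were chosen by their difference between cytokinin and water in these same arrays, so that difference is described here and not tested. LHB1B2 was chosen for passing limma's threshold, an adjusted p of 0.05, in the fit without a block (adjusted p = 0.00144), in which 1.1% of all features passed as rises. PSAN was chosen from a fit that treats same-numbered arrays as a block (adjusted p = 0.0275 in limma), in which 6.47% of all features passed as rises. It did not pass without the block (adjusted p = 0.792). When the arrays numbered 1 and 2, 3 and 4, and 5 and 6, which deviated together, were averaged as sets and the sets were the blocks, PSAN did not pass (adjusted p = 0.194 in limma) and LHB1B2 did (adjusted p = 0.0201). All these fits use the arrays in which the genes were chosen, so a pass in any of them is no separate evidence.

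Total RNA was hybridized to 12 arrays, 6 from culture given cytokinin for 2 h and 6 from culture given water. All samples were wild type of ecotype Columbia 0. One label calls the control untreated rather than water-treated. The sources used here give neither the kind and dose of cytokinin nor the light regime of the culture nor the duration of the control. Replicates are numbered 1 to 6 in each group. Nothing says that they came from separate cultures, so the spread between them, and any p-value, may be technical.

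Light-harvesting chlorophyll a/b-binding proteins of the Lhcb1 type, which LHB1B2 encodes, form the main antenna that passes excitation energy to photosystem II. PSAN encodes the N subunit of photosystem I, a small protein on the lumen side of the thylakoid membrane that takes part in the docking of plastocyanin. Cytokinins promote chloroplast development and greening in many plant tissues, and their fast transcriptional response runs through a phosphorelay whose best known early targets are the type-A response regulators. None of the 10 type-A response regulators looked for (0 of 10) was the only gene of a feature or among the genes of a feature with several, so the usual check of a cytokinin response was not made here. The RNA came from whole culture, in which fewer cells expressing a gene and less RNA per cell cannot be told apart.

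LHB1B2 was higher in cytokinin-treated than in water-treated culture on every array. Its normalized intensities with cytokinin were 0.728, 0.727, 0.770, 0.827, 0.875 and 0.905 on the arrays numbered 1 to 6. With water they were 0.518, 0.476, 0.516, 0.593, 0.460 and 0.447. The lowest cytokinin array was 1.23 times the highest water array, so the groups did not overlap. Of the 3091 features tested, 1.49% had every cytokinin array above every water array. The mean was 0.805 ± 0.0755 with cytokinin and 0.502 ± 0.0532 with water (SD, n = 6 each), a 1.61-fold difference, or 0.68 on the log2 scale (SE 0.08). This was the highest log2 change among the 613 tested features with exactly 1 gene name, and the third highest of all 3091. Within a group the arrays of LHB1B2 lay close together, the highest being 1.24 times the lowest with cytokinin and 1.33 times with water.

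PSAN had a smaller difference and a much wider spread. Its normalized intensities with cytokinin were 2.10, 1.96, 1.95, 1.95, 1.46 and 1.43 on the arrays numbered 1 to 6. With water they were 2.02, 1.91, 1.62, 1.58, 1.05 and 1.05. The groups overlapped widely: the arrays numbered 5 and 6 were the lowest of both groups, and the water arrays numbered 1 and 2 stood well above the cytokinin arrays numbered 5 and 6. The mean was 1.81 ± 0.289 with cytokinin and 1.54 ± 0.413 with water (SD, n = 6 each). On the log2 scale the mean difference was 0.27 (SE 0.18 without a block and 0.06 with one), which corresponds to 1.20-fold. The water arrays of PSAN differed among themselves by 1.93 times, more than the groups did. By size of log2 change PSAN stood 12 among the tested features with 1 gene name and 69 among all features.

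**Figure D1:**
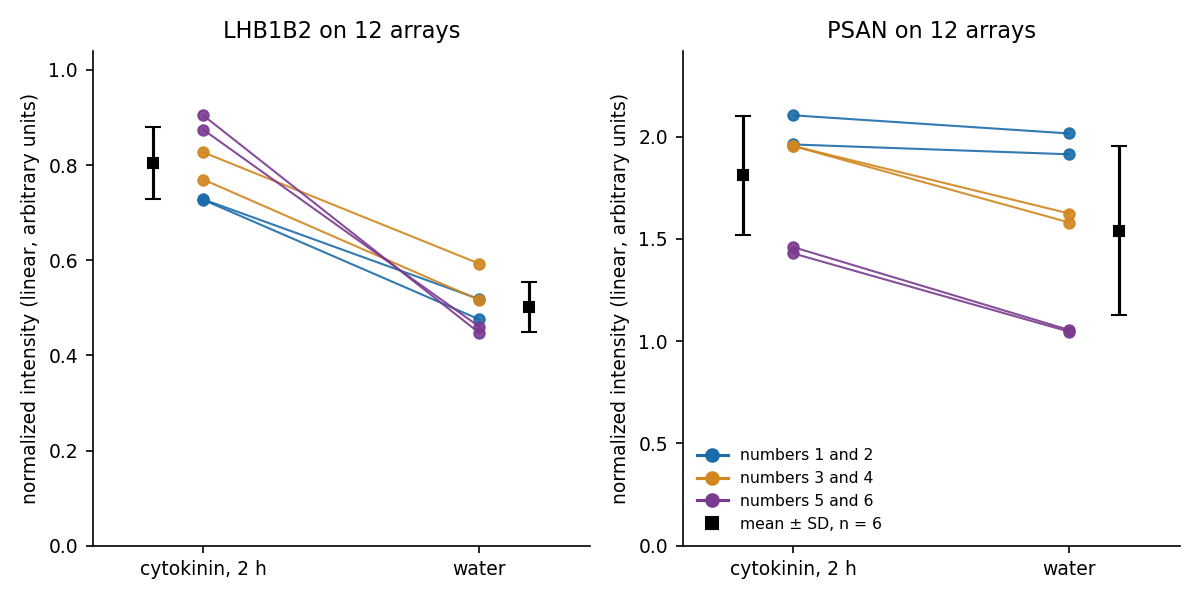
Normalized intensity (linear, arbitrary units) of LHB1B2 and PSAN, with cytokinin on the left and water on the right of each panel. Points are single arrays, lines join arrays of the same replicate number, colours mark numbers 1 and 2, 3 and 4, and 5 and 6, and black squares with bars are means ± SD of 6 arrays. The groups of LHB1B2 are separate (0.727 to 0.905 with cytokinin, 0.447 to 0.593 with water), while those of PSAN overlap (1.43 to 2.10 and 1.05 to 2.02).

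The deposited intensities, before any scaling, show the same separation for LHB1B2 and a weaker one for PSAN. LHB1B2 had 0.782 ± 0.0729 with cytokinin and 0.521 ± 0.0525 with water, and PSAN had 1.78 ± 0.306 with cytokinin and 1.58 ± 0.445 with water (SD, n = 6 each). The median deposited intensity of an array was 0.674 to 0.693 with cytokinin and 0.724 to 0.744 with water, a shift that the normalization removed. Without scaling, LHB1B2 was higher with cytokinin in 6 of 6 replicate numbers, and PSAN in 4 of 6. In numbers 1 and 2 the deposited PSAN intensities were 2.10 and 1.97 with cytokinin, against 2.12 and 1.99 with water. The sign of the PSAN difference in these numbers therefore turned with the scaling, at sizes near 0 either way. The signal of LHB1B2 was low but measurable, at 2.82 to 3.51 times the floor of 0.258 with cytokinin and 1.73 to 2.30 times with water. That of PSAN was 5.54 to 8.16 times the floor with cytokinin and 4.06 to 7.82 times with water. These ratios describe how far each feature stood above the lowest intensities used, and do not compare the abundance of the transcripts.

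**Figure D2:**
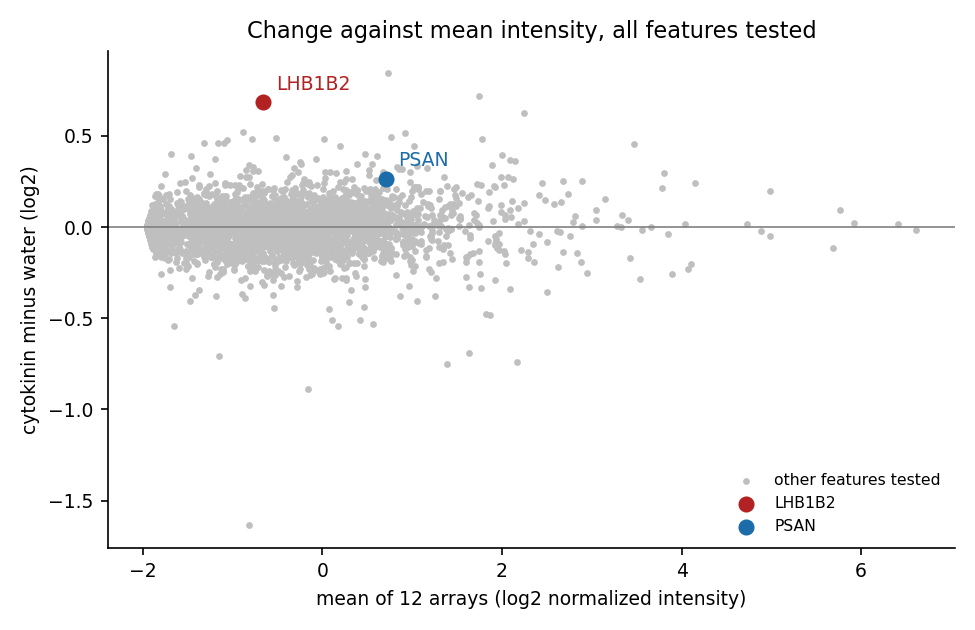
Log2 difference, cytokinin minus water, against the mean log2 normalized intensity of 12 arrays for the 3091 features tested, 1 point each. LHB1B2 (0.68 at a mean of -0.66) stands above nearly all features, and PSAN (0.27 at a mean of 0.71) lies at the upper edge of the cloud.

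Taken number by number, both genes had their largest differences in numbers 5 and 6. For LHB1B2 the log2 differences between same-numbered arrays were 0.49, 0.61, 0.58, 0.48, 0.93 and 1.02 for numbers 1 to 6. In numbers 5 and 6 LHB1B2 had both its highest cytokinin and its lowest water intensities, a 1.96-fold difference on average, against 1.47-fold in numbers 1 and 2 and 1.44-fold in 3 and 4. For PSAN the log2 differences were 0.06, 0.04, 0.27, 0.31, 0.47 and 0.45. PSAN was thus almost level between the groups in numbers 1 and 2 (1.03-fold), 1.22-fold higher with cytokinin in 3 and 4, and 1.38-fold higher in 5 and 6. All 6 normalized differences were above 0 for both genes, which held for 10.1% of all features tested. Whether the differences of these sets of numbers are unequal beyond chance was not tested, since the sets were recognised in the same arrays.

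The features whose numbers lie next to that of PSAN were mostly lower with cytokinin in numbers 1 and 2. Over the 50 tested features nearest in feature number, the median log2 difference was -0.19 and -0.23 in numbers 1 and 2, and between 0.01 and 0.02 in numbers 3 to 6. Over the 50 nearest to LHB1B2 it ran from -0.08 to 0.03. PSAN stood above its neighbours by 0.25 to 0.46 in all 6 numbers, and LHB1B2 by 0.46 to 0.99. When a running median over 51 neighbouring feature numbers was removed from each array, the PSAN differences became 0.28, 0.22, 0.28, 0.31, 0.40 and 0.41, with an SD of 0.0734 where it had been 0.185. The mean log2 change of PSAN was then 0.32, and that of LHB1B2 was 0.67. Among the 50 neighbours of PSAN, 1 had a log2 change at least as high as PSAN, and none (0) of those of LHB1B2 reached its change. The sources used here do not say how feature numbers relate to the layout of the array, and the part of position in the PSAN values was not tested.

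**Figure D3:**
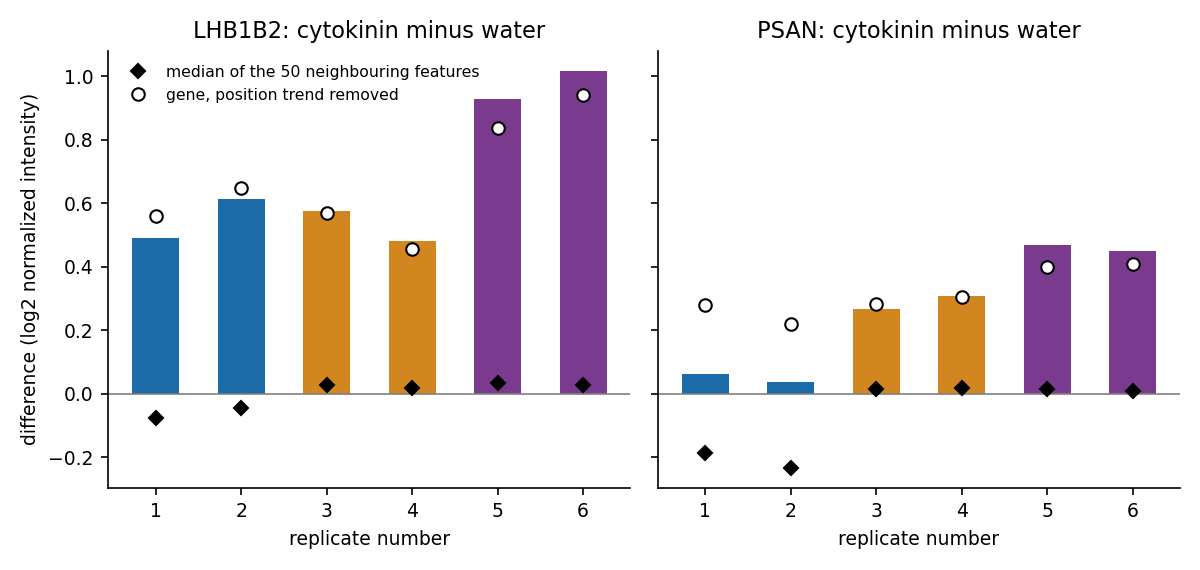
Log2 difference between the cytokinin and the water array of each replicate number (bars, coloured as numbers 1 and 2, 3 and 4, and 5 and 6). Diamonds are the median difference of the 50 neighbouring features, and open circles the gene after removal of the position trend. PSAN is near 0 in numbers 1 and 2 (0.06 and 0.04), where its neighbours lie at -0.19 and -0.23, and LHB1B2 is at 0.48 or above in every number.

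The variation of each gene over the 12 arrays was divided into a part between groups, a part between replicate numbers and a rest. For LHB1B2, 87.4% of the sum of squares lay between cytokinin and water and 4.29% between numbers. For PSAN, 15.5% lay between the groups and 78.2% between numbers, and the sets of numbers 1 and 2, 3 and 4, and 5 and 6 accounted for 77.5%. The median over all features tested was 4.98% between groups, 76.8% between numbers and 59.3% between sets. In its share between numbers PSAN resembled the array at large, since 47.4% of features had a larger one. Its share between sets was above the median, and 29.1% of features had a larger one. A larger share between numbers than that of LHB1B2 was found for 99.9% of features. LHB1B2 was picked in a fit that favours a small spread within groups, so its shares are no separate evidence. Over the 12 deviations from the group means, LHB1B2 and PSAN had a Pearson r of 0.04, given as a description, because arrays of the same number deviated together.

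Of 97 genes listed for the photosystems, their antennae, the electron carriers, the ATP synthase, the chloroplast NADH dehydrogenase-like (NDH) complex and their assembly, 10 were the only gene of a feature. Another 8 occurred only on features with several genes, and the remaining genes, among them LHB1B1, which neighbours LHB1B2 in the genome, had no annotated feature in the table used here. Whether the LHB1B2 feature separates its transcript from those of the other, closely similar Lhcb1 genes was not tested. Besides LHB1B2 and PSAN, 8 genes of the list could be followed. In the fit without a block none of them passed limma's threshold (0 rose and 0 fell, with 3 at an unadjusted p of 0.05), beside 1.55% of all features called. Their median log2 change was 0.04, with 5 values above 0 and 3 below, against 0.00282 over all features tested. With same-numbered arrays as blocks 0 rose and 3 fell, beside 11.7% of all features called and 5.21% called as falls. The 3 were NdhS, PSB27 and LPA19 (adjusted p = 0.032, 0.0302 and 0.0116 in limma), and none (0) of the 8 passed when the arrays of a set were averaged and sets were the blocks (lowest adjusted p = 0.142 in limma, with 4 at an unadjusted p of 0.05), beside 1.33% of all features.

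The other photosystem subunits measured were 2 small proteins of photosystem II. PSBW, a subunit of the photosystem II core complexes, had a deposited intensity of 32.1 to 38.8 with cytokinin (median 36.9) and 23.5 to 33.5 with water (median 32.4), and its groups overlapped. Its log2 change after normalization was 0.20 (SE 0.10, adjusted p = 0.591 in limma). It lay among the brightest features, where quantile normalization, which sets each value by rank, gave all 6 cytokinin arrays the same value of 34.0. PSBY, another small membrane protein of photosystem II, had normalized intensities of 1.20 to 1.32 with cytokinin (median 1.28) and 1.12 to 1.28 with water (median 1.21). Its log2 change was 0.09 (SE 0.05, adjusted p = 0.668 in limma). Neither gene passed the test, which for PSBW used these tied values. On the values as deposited the log2 change was 0.26 for PSBW and 0.01 for PSBY, beside 0.21 for PSAN. There PSBW was lower with cytokinin in 0 of 6 numbers, PSBY in 3 and PSAN in 2.

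LPA19, an assembly factor that acts on the D1 protein of photosystem II, ran opposite to LHB1B2. With the floor at 0.258, its signal was low, at 0.398 to 0.455 with cytokinin (median 0.428) and 0.462 to 0.535 with water (median 0.508) after normalization. Its groups did not overlap, as for 0.679% of all features with water on top. The log2 change was -0.23 (SE 0.05, adjusted p = 0.0534 in limma without a block), just short of passing. On the values as deposited the LPA19 log2 change was -0.34, beside a median of -0.0721 over all features tested. It passed there (adjusted p = 0.00757 in limma), in a fit that called 46 of 3103 features, 28 of them as falls. Among the 12 fits that omit 1 array, LPA19 passed in 1, without the water array numbered 1 (adjusted p = 0.0379 in limma). That fit called 42 of 3091 features. With same-numbered arrays as blocks, leaving out any 1 of the 3 sets of numbers left 0 of the 8 genes past limma's threshold (4 at an unadjusted p of 0.05 each time). NdhS, a subunit of the NDH complex on the side where ferredoxin binds, had normalized intensities of 9.42 to 11.9 with cytokinin (median 10.3) and 10.4 to 17.5 with water (median 11.7). It was lower with cytokinin in all 6 numbers (5 of 6 on the values as deposited), as were 8.06% of all features after normalization. Its largest differences, -0.45 and -0.61 on the log2 scale, lay in numbers 1 and 2, and its feature, 77, is close to that of PSAN. PSB27, a lumenal factor of photosystem II assembly and repair, varied mainly between numbers (95.9% of its sum of squares) and had a log2 change of -0.23 (SE 0.37 without a block). Once the position trend was removed, PSB27 no longer passed with the block (adjusted p = 0.113 in limma), in a fit that called 15.5% of all features. In that fit NdhS and LPA19 still passed as falls (log2 changes -0.23 and -0.28, adjusted p = 0.0122 and 0.0023 in limma).

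The rest of the list gave no call in the fits with or without a block. NdhN, another NDH subunit, had a log2 change of 0.00300 (SE 0.13). AT1G22700 and AT1G49380, which the RefSeq table does not name, were listed among assembly genes as PYG7 and CCS1. Their log2 changes were 0.14 (SE 0.05) and 0.17 (SE 0.21). AT1G22700 passed as a rise only with the block and the position trend removed together (adjusted p = 0.0432 in limma).

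**Figure D4:**
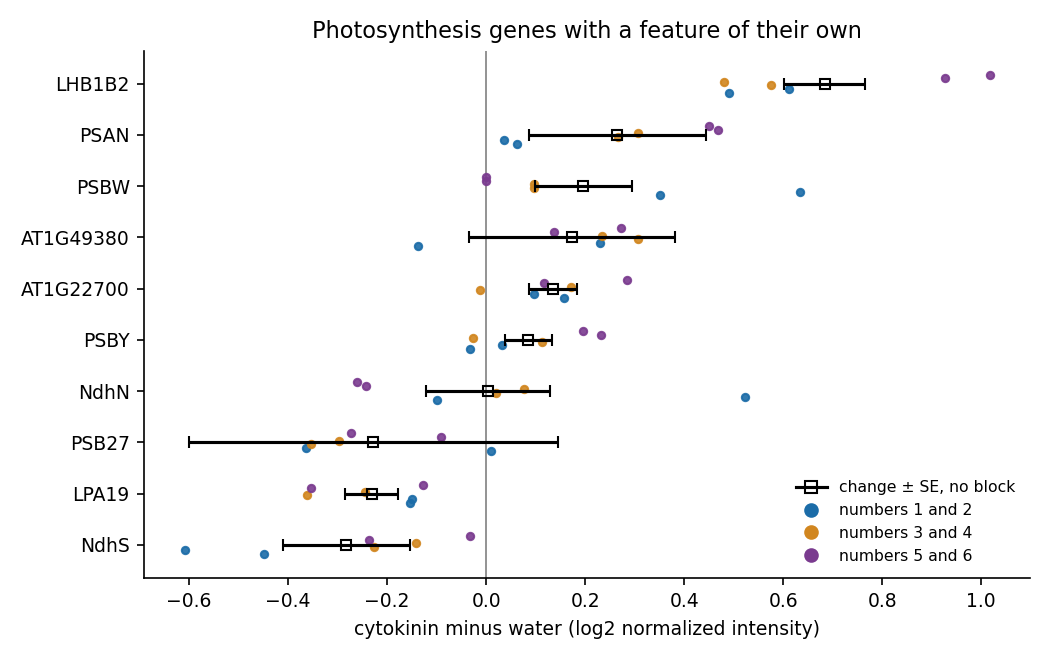
Log2 difference, cytokinin minus water, of the 10 photosynthesis genes with a feature of their own. Squares with bars are the change ± SE without a block, and points are the differences of single replicate numbers, coloured by set. All 6 points of LHB1B2 and PSAN lie above 0 after normalization (PSAN in 4 of 6 numbers as deposited), and all 6 of LPA19 and NdhS below (NdhS in 5 of 6 as deposited).

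The genes whose pattern was most like that of each member were taken from the other 612 tested features with 1 gene name, by Pearson r over the 12 arrays. For LHB1B2 they were AT1G35510 (r = 0.925), AT3G52070 (r = 0.886), AT2G28660 (r = 0.862) and AT1G22700 (r = 0.846). For PSAN they were AT2G29870 (r = 0.961), AT2G04700 (r = 0.947), AT1G13990 (r = 0.935) and CYN, the cyanase gene (r = 0.93). An r over 0.8 was reached by 9 genes with LHB1B2 and by 41 with PSAN. On deviations from the group means, which leave the treatment out, it was reached by 1 gene with LHB1B2, AT5G48130 (r = 0.879), and by 75 with PSAN, led by AT2G46050 (r = 0.976), AT2G29870 (r = 0.972), AT2G19870 (r = 0.972) and AT4G04370 (r = 0.964). The next 3 for LHB1B2 were AT4G17440 (r = 0.776), AT5G19750 (r = 0.765) and AT1G11470 (r = 0.761). The log2 changes of the genes most like LHB1B2 over the 12 arrays were 0.63, 0.29, 0.48 and 0.14. On deviations from the group means their r with LHB1B2 was 0.665, 0.451, -0.0554 and 0.586. Their r over the 12 arrays includes the group difference for which LHB1B2 was chosen. The log2 changes of the genes most like PSAN were 0.16, 0.13, 0.08 and 0.15 over the 12 arrays, each below the 0.27 of PSAN. All these r values are descriptions over 12 arrays that share numbers and sets.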

How the data were processed

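The deposited table gives 1 intensity on a linear scale for each of 3439 features on 12 arrays. How the authors scaled it or corrected background, and the array and scanner used, are not given in the sources used here. Totals per array ran from 3743 to 3875, 155 to 172 features per array were listed at 0, and precision is limited by how many arrays there are. Gene names are those of the platform annotation, brought up to date by Entrez identifier from a RefSeq table of assembly TAIR10.1 (690 of 692 features with 1 gene matched, 870 had several genes and 1877 were unnamed). No coordinates are printed, because no build is named.

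Intensities were quantile-normalized, raised where lower to a floor of 0.258, which is the 10th percentile of the pooled positive values, and log2-transformed. Features that never exceeded the floor (348) were left out. Cytokinin and water were compared over 3091 features by two-sided moderated tests in limma 3.58.1 (R 4.3.3). P-values were adjusted by Benjamini-Hochberg, with 0.05 as the threshold. The fits were tested on simulated data with independent or paired arrays. Those data held neither the sets of numbers nor a position trend, so they cannot show how the fits handle either. Plots were drawn with matplotlib 3.10.9.

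Same-numbered arrays deviated together from their group means (r from 0.696 to 0.839 across features), and each of the 6 cytokinin arrays correlated best with the water array of its own number. No label states a pairing, so the fit without a block was the main one. The blocked fits treat the numbers as pairs on the evidence of the data, and their values are given where the block changes a result. Members, the photosynthesis list, the sets of numbers and the tests were chosen with earlier results of these data known. Named genes are the members, the list genes with a feature of their own, and for each member the 4 most similar genes by either measure. Each result was recomputed under 31 other settings, 3 of them, the replicate block without each set of numbers, added after seeing the data.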

Additional observations from a re-analysis of the deposited data

How the results depend on the processing

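The log2 change of LHB1B2 was 0.684, and it stayed above 0 in all 31 other settings. It was 0.265 on log2(value + 1), a scale that compresses low intensities, and 0.54 without numbers 5 and 6, with or without the replicate block. Fits that omit 1 array gave 0.649 to 0.733. The log2 change of PSAN was 0.265 and stayed above 0 in all 31, from 0.157 on log2(value + 1) to 0.373 without numbers 1 and 2. Fits that omit 1 array gave 0.163 to 0.353. It was 0.168 without numbers 5 and 6 and 0.212 on the values as deposited. The replicate block leaves both log2 changes as they are and alters only their SE.

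The count of changed features, 48, was 85 under median scaling, 76 under array weights, 361 with the replicate block and 478 with the position trend removed as well. It was 7 without numbers 1 and 2, 7 without numbers 3 and 4 and 42 without numbers 5 and 6, and with the replicate block 111 without numbers 1 and 2, 221 without 3 and 4, and 146 without 5 and 6. Averaging each set gave 41 in limma when sets were the blocks and 0 when they were not (99 by unadjusted p at 0.05), and leaving out single arrays gave 32 to 43. Rises were 70.8% of the calls, and 39.1% without scaling or 82.4% under median scaling. Of the 8 other photosynthesis genes, 0 passed in limma. The count was 3 with the replicate block and 3 with the position trend removed as well. It was 1, LPA19 each time, on the values as deposited, after median scaling, with the floor at the 20th percentile, with features at the floor kept, with the position trend removed and with array weights. In the same order, these fits called 46 of 3103, 85 of 3093, 52 of 2866, 63 of 3439, 52 of 3091 and 76 of 3091 features. Leaving out single arrays gave 0 to 1, and leaving out a set of numbers gave 0 with or without the replicate block. The cause of these differences was not tested, though settings that leave out arrays have fewer samples.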
